A study of Mus musculus with 2 samples.

Results

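MDSC_1 is 1 of 30 clusters to which the authors assigned the cells of Hep1-6 tumours, and its members are the cells that carry that name in the deposited cell lists. There were 245 MDSC_1 cells among 5482 in the antibody library and 101 among 5765 in the IgG library, or 346 of 11247 cells in all. MDSC stands for myeloid-derived suppressor cell, and the other clusters of that name used here are MDSC_2, MDSC_3 and MDSC_4. Hep1-6 is a mouse hepatoma line, grown here as percutaneous grafts in wild-type male C57BL/6 mice aged 6 to 8 weeks on a normal diet under specific pathogen free conditions. The treated mice received an antibody against SIGLEC15 and the controls received IgG, both by intraperitoneal injection. Each library is a single 10x Genomics 3' library for a group of 3 mice, and cells enriched with CD45 beads were mixed 1:1 with unsorted cells before loading, so the mixing itself sets part of the immune share. No difference between libraries has a replicate check, and every interval below is a 95% interval of counting error only.

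Myeloid-derived suppressor cells are immature or activated neutrophils and monocytes that build up in tumours and can restrain T cells. Neutrophils make the granule proteins of their early stages in the bone marrow, carry large amounts of S100a8 and S100a9, and switch on cytokine and chemokine genes such as Il1b and Cxcl2 when activated in tissue. They hold little RNA, so a neutrophil gives few transcripts in a droplet assay.

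MDSC_1 cells were shallow. A transcript was counted as a UMI, a molecule with its own sequence tag, and MDSC_1 cells of the antibody library held a median of 950 UMIs with a range of 629 to 2797 and a median of 529 genes. The medians were 1183 UMIs in MDSC_2, 1059 in MDSC_3, 1049.5 in MDSC_4 and 4276.5 in the other immune clusters (T, B, DC and macrophage clusters). The 94 IgG MDSC_1 cells whose depth could be recovered held a median of 928 UMIs with a range of 588 to 1847. In all, 253992 UMIs were summed over the antibody MDSC_1 cells. Mitochondrial genes took a median of 2.92% of a cell's UMIs in MDSC_1, 1.56% in MDSC_2, 2.80% in MDSC_3 and 2.52% in MDSC_4. No MDSC_1 barcode occurred in both libraries, where 11 barcodes of other cells did, and 0 of the 245 antibody cells were predicted to be doublets.

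MDSC_1 carried the marker genes of neutrophils. Levels are given as CPM, the UMIs summed over the cells of a cluster and scaled to a total of 1000000, in the antibody library unless another is named. Of 10 neutrophil markers, 9 had enough UMIs for a comparison with the other immune clusters, and all 9 were at least 2-fold higher in MDSC_1, where 12.5% of all 11918 genes tested were. The 5 B cell markers, the 5 red blood cell markers, the 4 mast cell and basophil markers and the 3 eosinophil markers in the matrix were at 0 UMIs in MDSC_1. The 7 T cell markers summed to 47.2 CPM in MDSC_1, against 1181 CPM in the other immune clusters, and the 9 macrophage markers summed to 1303 CPM, against 8110 CPM. The 8 monocyte markers were less separated, with a sum of 815 CPM in MDSC_1, 1117 CPM in the other immune clusters and 762 CPM in macrophages, and 528 CPM of the sum in MDSC_1 came from Plac8. Hepatoma markers summed to 1205 CPM in MDSC_1, 1126 CPM in MDSC_2, 1298 CPM in MDSC_3 and 1196 CPM in MDSC_4, against 13119 CPM in tumour cells. The same markers summed to 714 CPM in the other immune clusters and 775 CPM in macrophages, below all 4 neutrophil-like clusters. The source of the hepatoma marker UMIs in MDSC_1 was not tested.

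The 5 genes used here as markers of MDSC_1 were chosen with earlier results of these data known. They were found in all 4 neutrophil-like clusters, MDSC_1 to MDSC_4. At least 3 of the 5 markers Il1b, Ptgs2, Ccl3, Mmp9 and Il1r2 had a UMI in 206 of 245 MDSC_1 cells (84.1%, exact interval 78.9 to 88.4%). The share was 70.8% in MDSC_2, 77.2% in MDSC_3, 78.9% in MDSC_4, 19.4% in macrophages and 2.09% in T cells, and 0 of 3213 tumour cells reached it, which allows a share of up to 0.115%. MDSC_1 cells had fewer UMIs each than the cells of the other neutrophil-like clusters, and macrophages and tumour cells had more.

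Il1b, which encodes the cytokine interleukin-1 beta, stood at 12544 CPM in MDSC_1, 15126 CPM in MDSC_2, 14406 CPM in MDSC_3, 6698 CPM in MDSC_4 and 383 CPM in the other immune clusters. Ptgs2, the gene of cyclooxygenase-2, the inducible enzyme of prostaglandin synthesis, stood at 2047 CPM in MDSC_1, 1216 CPM in MDSC_2, 1674 CPM in MDSC_3 and 1794 CPM in MDSC_4. MDSC_1 thus ranked 3 among the 30 clusters for Il1b and 1 for Ptgs2, although the Ptgs2 ratio of MDSC_1 to MDSC_4 was 1.14 with an interval of 0.986 to 1.32 that includes 1.

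Ccl3, a chemokine that attracts leukocytes, stood at 3874 CPM in MDSC_1, 1259 CPM in MDSC_2, 2746 CPM in MDSC_3 and 8952 CPM in MDSC_4. Mmp9, a gelatinase stored in neutrophil granules, stood at 1217 CPM in MDSC_1, 820 CPM in MDSC_2, 682 CPM in MDSC_3 and 523 CPM in MDSC_4. Il1r2, the decoy receptor for interleukin-1, stood at 1539 CPM in MDSC_1, 1049 CPM in MDSC_2, 1143 CPM in MDSC_3 and 1247 CPM in MDSC_4. Mmp9 and Il1r2 were highest in MDSC_1 among all 30 clusters, and Ccl3 was higher in MDSC_4 only. The ratio of MDSC_1 to the nearest cluster was 1.48 (1.23 to 1.80) for Mmp9, against MDSC_2, and 1.23 (1.04 to 1.47) for Il1r2, against MDSC_4. How the clusters were made is not given in the sources used here, and since clusters of single cells are commonly drawn from expression, a ratio between clusters is given as a description and not as a test.

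**Figure D1:**
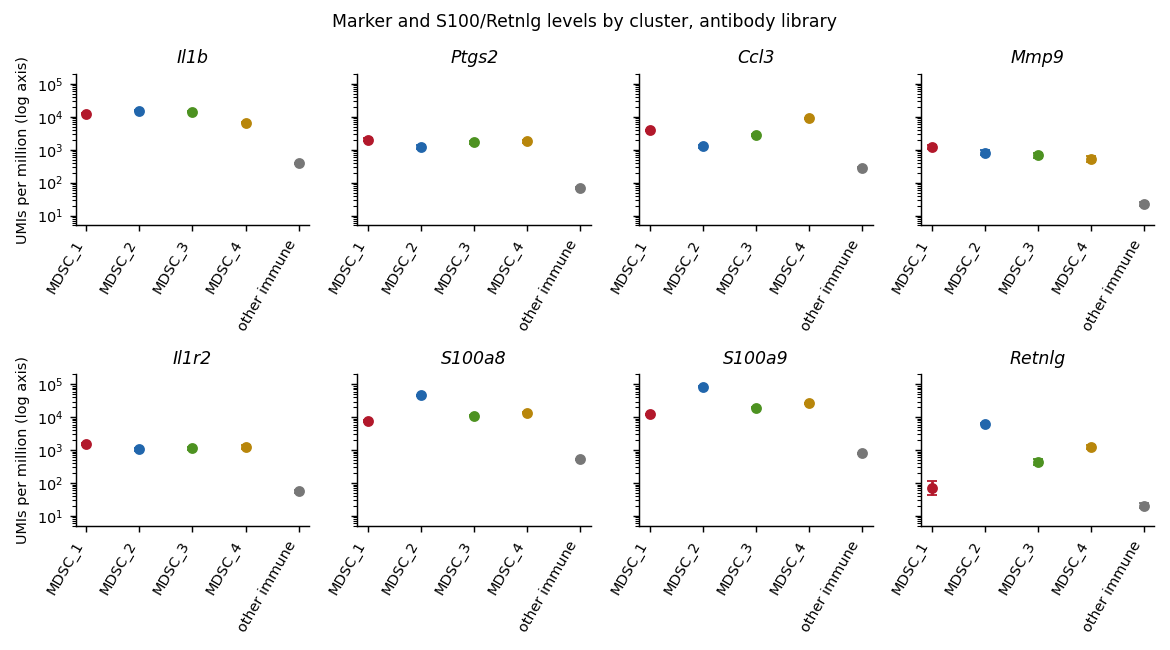
CPM of the 5 markers and of S100a8, S100a9 and Retnlg on a log axis, for MDSC_1 to MDSC_4 and the pooled other immune clusters of the antibody library, with exact Poisson 95% intervals of counting error. Each marker lies far higher in MDSC_1 to MDSC_4 than in the other immune clusters, while S100a8, S100a9 and Retnlg are lowest in MDSC_1 among the neutrophil-like clusters.

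The depth of a cell decides whether a marker is seen at all, so each cell was also thinned to 500 UMIs. After thinning, the expected share of MDSC_1 cells with a UMI was 94.7% for Il1b, 47.8% for Ptgs2, 45.4% for Ccl3, 42.8% for Mmp9 and 49.1% for Il1r2. Without thinning, the share was 97.1% for Il1b, 61.6% for Ptgs2, 53.1% for Ccl3, 62.9% for Mmp9 and 69.0% for Il1r2. In T cells, which should lack Il1b and had a median of 3856.5 UMIs before thinning, its thinned share was 1.27%, and in tumour cells it was 0.213%. Il1b was thus seen in most MDSC_1 cells even at a common depth and far above its share in T cells. Its thinned share was 97.2% in MDSC_2, 96.8% in MDSC_3 and 72.3% in MDSC_4, so it did not mark MDSC_1 alone. Among the 4 neutrophil-like clusters, MDSC_4 had the highest thinned share for Ptgs2, at 50.1%, and for Ccl3, at 80.4%. MDSC_1 had the highest for Mmp9 and Il1r2. The source of the Il1b UMIs in T cells was not tested.

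Within the neutrophil-like clusters, MDSC_1 had a low level of S100a8 and S100a9, which encode the subunits of calprotectin. S100a8 stood at 7701 CPM in MDSC_1, 46045 CPM in MDSC_2, 11005 CPM in MDSC_3 and 13856 CPM in MDSC_4. S100a9 stood at 12512 CPM in MDSC_1, 84954 CPM in MDSC_2, 19640 CPM in MDSC_3 and 26321 CPM in MDSC_4. MDSC_1 was lowest for both, with a ratio to MDSC_2 of 0.167 (0.159 to 0.176) for S100a8 and 0.147 (0.142 to 0.153) for S100a9. Cell by cell, the pair took a median of 1.12% of the UMIs in MDSC_1, 12.3% in MDSC_2, 1.86% in MDSC_3 and 2.42% in MDSC_4. Only 1 of 245 MDSC_1 cells lay above the MDSC_2 median, whereas 94 lay above the MDSC_3 median and 73 above the MDSC_4 median, so MDSC_1 was nearly separate from MDSC_2 in this measure and overlapped widely with the other two. With both genes taken out of the totals, the median log2 ratio of all tested genes against MDSC_2 was 0.25 in place of 0.42.

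Of the secondary granule list, 0 of 9 tested genes were at least 2-fold higher in MDSC_1 and 8 lower against MDSC_2. Against MDSC_3, 1 of 7 was higher and 1 lower, and against MDSC_4, 2 of 8 were higher and 3 lower, so the direction differed by neighbour. Of all genes tested, 6.02% were at least 2-fold lower against MDSC_2, 6.12% against MDSC_3 and 7.98% against MDSC_4. Hp, the gene of haptoglobin, stood at 358 CPM in MDSC_1, 1317 CPM in MDSC_2, 168 CPM in MDSC_3 and 176 CPM in MDSC_4. Retnlg, a resistin-like gene of mouse neutrophils, stood at 70.9 CPM in MDSC_1, 6387 CPM in MDSC_2, 430 CPM in MDSC_3 and 1228 CPM in MDSC_4. Lcn2, the iron-scavenging granule protein lipocalin-2, stood at 55.1 CPM in MDSC_1, 1727 CPM in MDSC_2, 159 CPM in MDSC_3 and 214 CPM in MDSC_4. Ly6g, the surface antigen used to stain mouse neutrophils, had 1 UMI in MDSC_1, or 3.94 CPM, against 105 CPM in MDSC_2. In the pairs with MDSC_3 and with MDSC_4, Ly6g had under the 10 UMIs needed for a comparison. Its low level thus did not separate MDSC_1 from those clusters. Camp and Ngp, genes of secondary granule proteins, had 0 UMIs in MDSC_1, against 615 CPM and 258 CPM in MDSC_2. Set against a floor of 3 UMIs, or 11.8 CPM, in MDSC_1, that is at least 52.1-fold lower for Camp and at least 21.8-fold lower for Ngp. Both were also at 0 UMIs in MDSC_3 and MDSC_4, so their absence at this depth did not separate MDSC_1 from those clusters.

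The promoters of Il1b, Cxcl2 and S100a8 are printed below, since Il1b and Cxcl2 are the inflammatory genes described most fully here and S100a8 is a gene that was lowest in MDSC_1 among the neutrophil-like clusters. Each is the 250 bases before the gene's start in RefSeq, build GRCm38.p6, read 5' to 3' on the gene's own strand, and capitals mark a match to a searched motif. Il1b lies on the minus strand at chr2:129371140-129371389, Cxcl2 on the plus strand at chr5:90903649-90903898 and S100a8 on the plus strand at chr3:90668821-90669070.
Il1b: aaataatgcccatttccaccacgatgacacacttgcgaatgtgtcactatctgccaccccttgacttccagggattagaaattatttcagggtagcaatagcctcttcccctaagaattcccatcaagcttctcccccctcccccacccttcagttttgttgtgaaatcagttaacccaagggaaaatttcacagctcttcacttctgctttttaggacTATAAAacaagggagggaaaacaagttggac
Cxcl2: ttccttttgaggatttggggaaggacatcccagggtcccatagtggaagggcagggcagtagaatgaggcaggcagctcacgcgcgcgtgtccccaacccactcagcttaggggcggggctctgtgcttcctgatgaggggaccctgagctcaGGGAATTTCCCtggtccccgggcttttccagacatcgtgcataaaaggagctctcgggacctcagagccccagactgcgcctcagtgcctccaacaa
S100a8: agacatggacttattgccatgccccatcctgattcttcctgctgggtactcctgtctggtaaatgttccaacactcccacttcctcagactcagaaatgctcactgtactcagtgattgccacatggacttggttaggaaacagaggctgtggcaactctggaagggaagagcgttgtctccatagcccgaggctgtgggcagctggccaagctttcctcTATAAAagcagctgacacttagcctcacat

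The capitals in Il1b and S100a8 are the TATA box letters TATAAA, which begin 31 and 30 bases before the start. TATAAA is present on either strand in 13% of 27025 promoters of this length. The capitals in Cxcl2 are overlapping matches to the NF-kB consensus, on the plus strand from 97 bases and on the minus strand from 96 bases before the start, and 7.01% of promoters hold such a match. The AP-1 letters TGANTCA, found in 6.87% of promoters, and the cyclic AMP response element TGACGTCA, found in 1.62%, were in none of these windows on either strand. Of the 15 genes highest in MDSC_1 against the other immune clusters, 13 had a promoter in the table, and Asprv1, Ccrl2, Csf3r and Cxcl2 among them held an NF-kB match. Of the 5 markers, 4 had a promoter in the table, and 0 of these held an NF-kB match. Mmp9 had no entry in the table. A match is a description of the letters only.

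MDSC_1 was next compared with each neutrophil-like cluster over all genes. A gene was counted as higher or lower where the log2 ratio of CPM, with a prior of 0.5 UMIs, was at least 1 in size, among genes with at least 10 UMIs in the pair. Against MDSC_2, 1089 of 4399 genes (24.8%) were at least 2-fold higher in MDSC_1 and 265 (6.02%) were at least 2-fold lower. Against MDSC_3 the counts were 660 (14.3%) higher and 282 (6.12%) lower of 4605 genes, and against MDSC_4 they were 954 (22.4%) higher and 340 (7.98%) lower of 4259 genes. The median log2 ratio of all tested genes was 0.42 against MDSC_2, 0.23 against MDSC_3 and 0.32 against MDSC_4, and these shifts stand behind every count and median below. With at least 50 UMIs per gene the medians were 0.29 against MDSC_2, 0.09 against MDSC_3 and 0.24 against MDSC_4, and against MDSC_3 the balance turned, with 54 genes higher and 88 lower. In cells where hepatoma markers held under 0.2% of UMIs, a choice made after seeing the data, 937 genes were at least 2-fold higher in MDSC_1 and 248 lower of 3874 against MDSC_2, 603 and 272 of 3989 against MDSC_3, and 851 and 320 of 3659 against MDSC_4. Across 11808 genes, the profile of MDSC_1 was most like MDSC_3, with a Pearson r of 0.934 on log2 CPM with 20 added. It was 0.914 for MDSC_2, 0.903 for MDSC_4 and 0.844 for the cluster named DC, so that MDSC_2 to MDSC_4 came before any other cluster. The cluster named MDSC_5, of 37 antibody cells, had an r of 0.731 and 348 CPM of S100a8, and it was not set against MDSC_1 further.

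The 15 genes lowest in MDSC_1 against all of MDSC_2, MDSC_3 and MDSC_4 were Retnlg, Osm, Wfdc17, Slfn4, Nampt, Stfa2l1, Acod1, Wfdc21, S100a6, Slpi, Clec4d, Samsn1, Il1f9, Ccr1 and Lilrb4a. Osm, which encodes the cytokine oncostatin M, stood at 224 CPM in MDSC_1, 1741 CPM in MDSC_2, 815 CPM in MDSC_3 and 762 CPM in MDSC_4. Acod1, the enzyme that makes itaconate in activated myeloid cells, stood at 579 CPM in MDSC_1, 1183 CPM in MDSC_2, 2086 CPM in MDSC_3 and 1291 CPM in MDSC_4. Nampt, an enzyme of NAD synthesis, stood at 106 CPM in MDSC_1, 329 CPM in MDSC_2, 709 CPM in MDSC_3 and 353 CPM in MDSC_4. These genes were low in MDSC_1 and high in the other neutrophil-like clusters in different orders, with MDSC_2 highest for Osm and MDSC_3 highest for Acod1 and Nampt. Slpi, a protease inhibitor, stood at 366 CPM in MDSC_1, 2204 CPM in MDSC_2, 620 CPM in MDSC_3 and 1165 CPM in MDSC_4. Il1f9, the cytokine interleukin-36 gamma, stood at 185 CPM in MDSC_1, 582 CPM in MDSC_2, 297 CPM in MDSC_3 and 535 CPM in MDSC_4. Stfa2l1, Wfdc17, Wfdc21 and Lilrb4a have close paralogs, so reads may be split among copies.

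**Figure D2:**
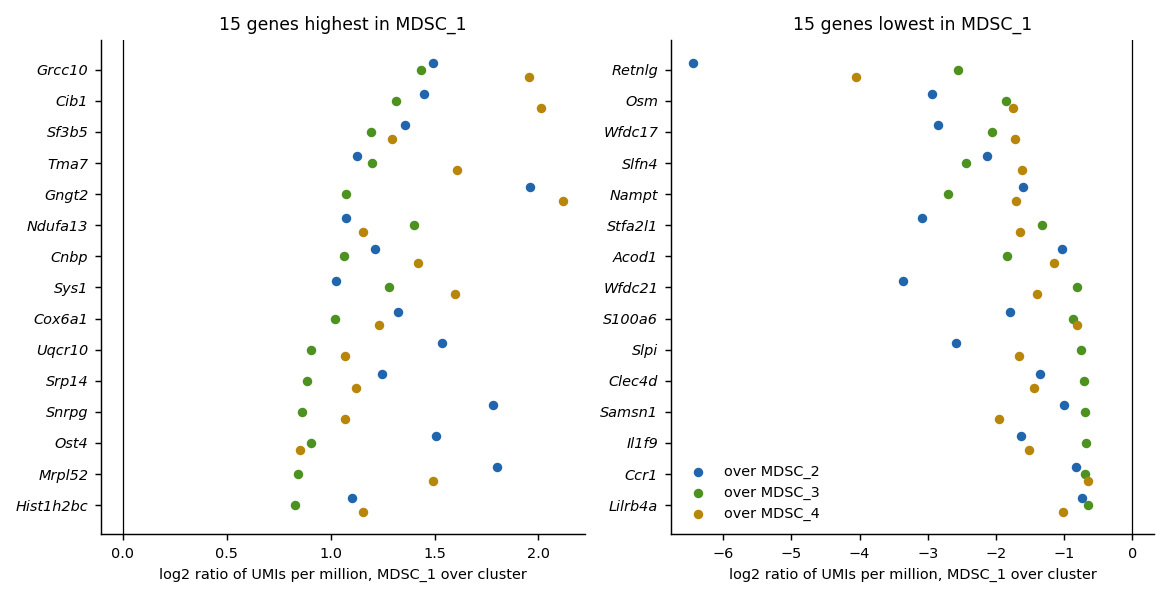
Log2 ratios of CPM, MDSC_1 over MDSC_2, MDSC_3 and MDSC_4, for the 15 genes highest and the 15 genes lowest in MDSC_1 by the ratio to the nearest cluster. Points of 1 gene lie in the same direction from the line at 0 by the choice of genes, and the low genes reach further from 0 than the high ones, with Retnlg at -6.45 against MDSC_2.

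The 15 genes highest in MDSC_1 against each of the other 3 clusters were of another kind. They were Grcc10, Cib1, Sf3b5, Tma7, Gngt2, Ndufa13, Cnbp, Sys1, Cox6a1, Uqcr10, Srp14, Snrpg, Ost4, Mrpl52 and Hist1h2bc. Gngt2, a gamma subunit of G proteins, stood at 693 CPM in MDSC_1, 176 CPM in MDSC_2, 328 CPM in MDSC_3, 157 CPM in MDSC_4 and 178 CPM in the other immune clusters. Hist1h2bc, a histone gene, stood at 606 CPM in MDSC_1, 281 CPM in MDSC_2, 341 CPM in MDSC_3, 271 CPM in MDSC_4 and 87.5 CPM in the other immune clusters. Both were thus above the other immune clusters too, with ratios of 3.89 (3.30 to 4.56) for Gngt2 and 6.93 (5.77 to 8.28) for Hist1h2bc. Most of the rest are widely expressed genes, with roles in splicing, translation and respiration among them. Cox6a1, a subunit of cytochrome c oxidase, stood at 433 CPM in MDSC_1, 172 CPM in MDSC_2, 213 CPM in MDSC_3, 183 CPM in MDSC_4 and 380 CPM in the other immune clusters. MDSC_1 was thus above its neighbours for Cox6a1 and near the other immune clusters, with a ratio to them of 1.14 (0.934 to 1.38).

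Lists of respiratory chain and ribosomal protein genes were added after these values were seen. Of 74 nuclear respiratory chain genes tested, 32 were at least 2-fold higher in MDSC_1 and 0 lower against MDSC_2, with a median log2 ratio of 0.87. Against MDSC_3, 13 of 74 were higher and 0 lower with a median of 0.59, and against MDSC_4, 22 were higher and 0 lower with a median of 0.77. The share of all tested genes that was higher was 24.8% against MDSC_2, 14.3% against MDSC_3 and 22.4% against MDSC_4. The share of the list was near that of all genes against MDSC_3 and further above it against MDSC_2 and MDSC_4. Each median lay above that of all tested genes. Against the other immune clusters, 0 of 80 were higher and 30 were lower, with a median of -0.88. That share is near the 36.1% of all 11918 genes that were at least 2-fold lower there, where the median of all genes was -0.53. Ribosomal protein genes took a median of 6.64% of a cell's UMIs in MDSC_1, 4.35% in MDSC_2, 4.61% in MDSC_3 and 5.39% in MDSC_4. Of 82 tested, 12 were at least 2-fold higher against MDSC_2, 1 against MDSC_3 and 2 against MDSC_4, with 0 lower in each. Those shares lay below the 24.8%, 14.3% and 22.4% of all tested genes that were higher. Their median log2 ratios of 0.67, 0.40 and 0.39 lay above those of all tested genes. In the comparison with the other immune clusters, 1 of 82 was higher and 75 were lower, with a median of -1.57. In cells with at least 1000 UMIs the respiratory chain medians were 0.97 against MDSC_2, 0.64 against MDSC_3 and 0.93 against MDSC_4. In cells with under 0.2% hepatoma markers they were 0.97 against MDSC_2, 0.58 against MDSC_3 and 0.85 against MDSC_4. The part of mitochondrial RNA, given above, was not tested.

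Cytokines and their control came next. Of the interleukin-1 family and inflammasome list, 2 of 15 tested members were at least 2-fold higher in MDSC_1 and 2 lower against MDSC_2, with a median log2 ratio of -0.05. Against MDSC_3, 0 of 16 were higher and 6 lower with a median of -0.75, and against MDSC_4, 0 of 15 were higher and 2 lower with a median of 0.19. Casp4, the caspase that senses intracellular lipopolysaccharide in mice, was among the low ones, at 39.4 CPM in MDSC_1 against 341 CPM in MDSC_3. Il1rn, the receptor antagonist, stood at 945 CPM in MDSC_1, 549 CPM in MDSC_2, 1360 CPM in MDSC_3 and 1889 CPM in MDSC_4. Tnf, the gene of tumour necrosis factor, stood at 354 CPM in MDSC_1, 110 CPM in MDSC_2, 638 CPM in MDSC_3 and 416 CPM in MDSC_4. MDSC_1 thus lay between MDSC_2 and the other clusters for both genes, although the ratio of Tnf to MDSC_4, 0.853 (0.614 to 1.19), has an interval that includes 1. Of 19 NF-kB pathway genes, 4 were higher and 0 lower against MDSC_2, 0 and 5 against MDSC_3, and 2 and 0 against MDSC_4. Among all tested genes, 24.8% were higher and 6.02% lower against MDSC_2, 14.3% and 6.12% against MDSC_3, and 22.4% and 7.98% against MDSC_4. The median log2 ratios of the NF-kB list were 0.28, -0.46 and -0.02 in the same order, each below that of all tested genes.

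Genes of lipid mediators gave few members to compare. In the prostaglandin and leukotriene list, 3 of 8 tested members were at least 2-fold higher and 0 lower against MDSC_2, 2 of 10 and 0 against MDSC_3, and 3 of 8 and 0 against MDSC_4, where 24.8%, 14.3% and 22.4% of all genes were higher. The list includes the marker Ptgs2, and against the other immune clusters 6 of 15 members were higher and 4 lower, with a median of -0.03. The median log2 ratios of 0.51, 0.43 and 0.72 were above those of all tested genes, and they rest on few members. Ltc4s, leukotriene C4 synthase, stood at 165 CPM in MDSC_1, 9.54 CPM in MDSC_2, 17.7 CPM in MDSC_3 and 50.4 CPM in MDSC_4, on 42 UMIs in MDSC_1. Its ratio was 17.3 (4.51 to 148) against MDSC_2 and 3.28 (1.52 to 8.10) against MDSC_4, and its thinned share was 7.01% of MDSC_1 cells, against 0.245% in MDSC_2. Alox5ap, the partner protein of 5-lipoxygenase, went another way, with 622 CPM in MDSC_1, 1035 CPM in MDSC_2, 390 CPM in MDSC_3 and 371 CPM in MDSC_4. Only a minority of MDSC_1 cells thus gave a Ltc4s transcript, while the cluster total was still highest.

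Among chemokines MDSC_1 was not the richest cluster. Cxcl2, a neutrophil-attracting chemokine, stood at 13162 CPM in MDSC_1, 13308 CPM in MDSC_2, 13449 CPM in MDSC_3 and 29022 CPM in MDSC_4. The ratio of MDSC_1 was 0.989 (0.940 to 1.04) to MDSC_2 and 0.979 (0.931 to 1.03) to MDSC_3, and 0.454 (0.434 to 0.474) to MDSC_4. Against MDSC_4, 7 of 13 tested chemokine genes were at least 2-fold lower in MDSC_1 and 2 higher, with a median log2 ratio of -1.14. Against MDSC_2, 4 of 11 were higher and 2 lower, and against MDSC_3, 1 of 13 was higher and 1 lower. Among all tested genes, 22.4% were higher and 7.98% lower against MDSC_4, 24.8% and 6.02% against MDSC_2, and 14.3% and 6.12% against MDSC_3. The chemokine counts rest on few members. Cxcl10, an interferon-induced T cell attractant, stood at 114 CPM in MDSC_1, 114 CPM in MDSC_2, 2542 CPM in MDSC_3 and 157 CPM in MDSC_4.

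Single cells of MDSC_1 differed widely in the same genes. The pair Ccl3 and Ccl4 was at 0 UMIs in 103 of 245 MDSC_1 cells, had a median of 0.111% of a cell's UMIs and reached 9.33% in the highest cell. The 25 MDSC_1 cells with the largest share of it held 52.9% of its summed level, and the same fraction of cells held 69.8% in MDSC_2, 50.2% in MDSC_3 and 34.1% in MDSC_4. Il1b was spread more evenly, with 21.0% of its summed level in the 25 highest MDSC_1 cells and 7 cells at 0. Across the 245 cells, the Spearman correlations of the 21 pairs formed from Il1b, Cxcl2, Ccl3 with Ccl4, Ptgs2, Mmp9, Il1r2 and the S100 pair lay between -0.19 and 0.18. All points come from 1 library and hold few UMIs, and at that size the values show no finding.

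**Figure D3:**
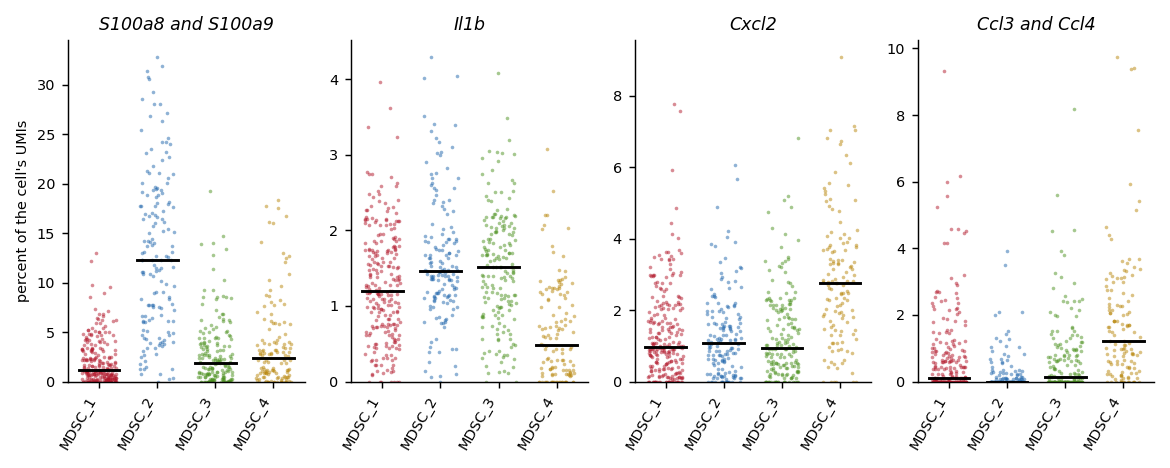
Percent of each cell's UMIs from S100a8 with S100a9, Il1b, Cxcl2, and Ccl3 with Ccl4 in single cells of MDSC_1 to MDSC_4 of the antibody library, with the median as a black line. The S100 pair is at a median of 1.12% in MDSC_1 and 12.3% in MDSC_2, while Il1b and Cxcl2 overlap between them, and MDSC_4 is highest in Cxcl2 and in Ccl3 with Ccl4.

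Chemoattractant receptors and sensors of microbes were mixed. Cxcr2, the receptor for Cxcl2, stood at 807 CPM in MDSC_1, 1374 CPM in MDSC_2, 841 CPM in MDSC_3 and 485 CPM in MDSC_4. Ccrl2, a receptor that binds chemerin without signalling, stood at 1988 CPM in MDSC_1, 615 CPM in MDSC_2, 1971 CPM in MDSC_3 and 1851 CPM in MDSC_4. Of 11 tested receptors, 2 were at least 2-fold higher and 3 lower in MDSC_1 against MDSC_2, with a median log2 ratio of -0.77. Against MDSC_3, 0 of 11 were higher and 2 lower, and against MDSC_4, 1 of 10 was higher and 0 lower. For all tested genes the shares were 24.8% and 6.02%, 14.3% and 6.12%, and 22.4% and 7.98% in the same order. Tlr2, a receptor for bacterial lipoproteins, stood at 39.4 CPM in MDSC_1, 181 CPM in MDSC_2, 204 CPM in MDSC_3 and 145 CPM in MDSC_4. Tlr2 was thus lowest in MDSC_1, on 10 UMIs. Clec4n, the fungal receptor dectin-2, was highest in MDSC_1, at 1598 CPM against 644 CPM in MDSC_2, 1413 CPM in MDSC_3 and 951 CPM in MDSC_4, although its ratio to MDSC_3, 1.13 (0.975 to 1.31), has an interval that includes 1.

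Interferon-induced genes separated MDSC_1 from MDSC_3. Among all genes tested in that pair, 14.3% were at least 2-fold higher in MDSC_1 and 6.12% lower, with a median log2 ratio of 0.23. Of 25 tested type I interferon genes, 0 were at least 2-fold higher and 20 lower in MDSC_1, with a median log2 ratio of -2.04, and of 15 interferon gamma genes, 0 were higher and 12 lower with a median of -1.37. Isg15, a ubiquitin-like protein induced by interferon, stood at 1520 CPM in MDSC_1, 1689 CPM in MDSC_2, 6457 CPM in MDSC_3 and 1309 CPM in MDSC_4. Gbp2, an interferon-induced GTPase, stood at 551 CPM in MDSC_1, 429 CPM in MDSC_2, 3122 CPM in MDSC_3 and 239 CPM in MDSC_4. Against MDSC_4, 9 of 15 interferon gamma genes were higher in MDSC_1 and 0 lower, with a median of 1.25. There, 22.4% of all tested genes were higher and 7.98% lower. Of the type I interferon genes, 3 of 21 were higher and 3 lower against MDSC_4. Against MDSC_2, 1 of 22 was higher and 4 lower, where 24.8% and 6.02% of all tested genes were. For the interferon gamma genes MDSC_1 thus lay between MDSC_3 and MDSC_4.

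Hypoxia and glycolysis genes separated MDSC_1 from MDSC_4. In that pair, 22.4% of all tested genes were at least 2-fold higher in MDSC_1 and 7.98% lower. Of 25 tested members, 0 were at least 2-fold higher and 16 lower in MDSC_1 against MDSC_4, with a median log2 ratio of -1.36, while the medians were 0.15 against MDSC_2 and -0.08 against MDSC_3. Hilpda, a hypoxia-induced lipid droplet protein, stood at 102 CPM in MDSC_1, 100 CPM in MDSC_2, 155 CPM in MDSC_3 and 1819 CPM in MDSC_4. Egln3, an oxygen sensor that hypoxia induces, stood at 201 CPM in MDSC_1, 200 CPM in MDSC_2, 213 CPM in MDSC_3 and 693 CPM in MDSC_4.

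**Figure D4:**
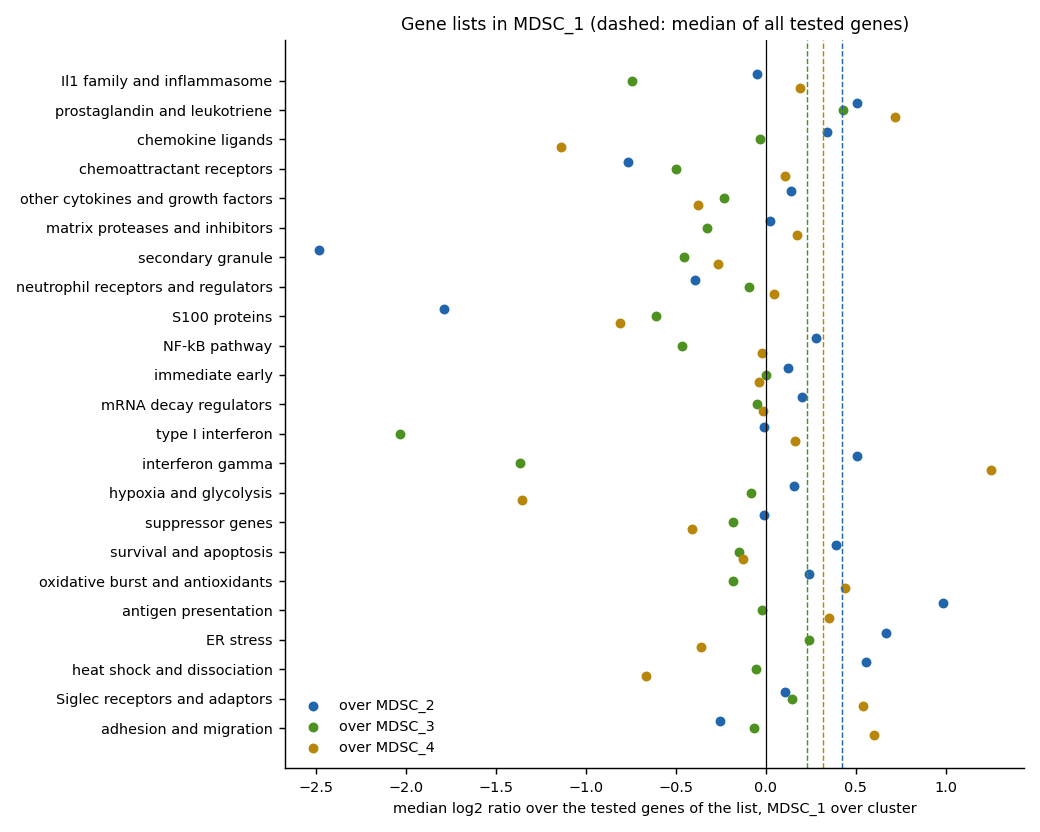
Median log2 ratio of CPM over the tested genes of each list, MDSC_1 over MDSC_2, MDSC_3 and MDSC_4, with dashed lines at the medians of all tested genes (0.42, 0.23 and 0.32) and lists of at least 5 tested genes in each comparison. Secondary granule and S100 lists are lowest against MDSC_2, interferon lists against MDSC_3, and hypoxia and chemokine lists against MDSC_4.

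Genes through which such cells can act on T cells were mixed. Cd274, the gene of PD-L1, stood at 409 CPM in MDSC_1, 172 CPM in MDSC_2, 1293 CPM in MDSC_3 and 781 CPM in MDSC_4. Arg2, an arginase, stood at 146 CPM in MDSC_1, 210 CPM in MDSC_2, 146 CPM in MDSC_3 and 220 CPM in MDSC_4. Of 14 tested suppressor genes, 0 were at least 2-fold higher in MDSC_1 and 3 lower against MDSC_3, and 2 were higher and 3 lower against MDSC_4. Against MDSC_2, 2 of 13 were higher and 1 lower. Among all tested genes, 14.3% were higher and 6.12% lower against MDSC_3, 22.4% and 7.98% against MDSC_4, and 24.8% and 6.02% against MDSC_2. The share of suppressor genes that was higher thus lay below that of all genes in each comparison, on few members.

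The target of the antibody, Siglec15, was not analysed here. Other sialic acid-binding receptors were measured, and those named here were chosen after their values were seen. Siglecf, best known from mouse eosinophils, stood at 82.7 CPM in MDSC_1, 9.54 CPM in MDSC_2, 26.6 CPM in MDSC_3 and 25.2 CPM in MDSC_4, on 21 UMIs in MDSC_1. Siglece, an inhibitory receptor of mouse neutrophils, stood at 154 CPM in MDSC_1, 224 CPM in MDSC_2, 177 CPM in MDSC_3 and 88.1 CPM in MDSC_4. Siglecf was thus highest in MDSC_1, where the eosinophil markers Prg2, Ear6 and Ccr3 were at 0 UMIs, and its thinned share was 4.0% of cells. Tyrobp, the adaptor protein DAP12 through which several activating receptors signal, stood at 6977 CPM in MDSC_1, 6492 CPM in MDSC_2, 6443 CPM in MDSC_3 and 4835 CPM in MDSC_4.

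Against the pooled other immune clusters, 1491 of 11918 genes (12.5%) were at least 2-fold higher in MDSC_1 and 4298 (36.1%) were at least 2-fold lower, and the median log2 ratio was -0.53. All 5 markers were higher, with ratios of 13.7 (12.7 to 14.8) for Ccl3 up to 54.3 (44.7 to 66.1) for Mmp9. The highest gene was G0s2, an inhibitor of fat breakdown, at 2370 CPM in MDSC_1 against 39.1 CPM. Rab44, a small GTPase gene, stood at 217 CPM in MDSC_1 against 3.90 CPM, and Csf3r, the receptor for the growth factor G-CSF, at 1551 CPM against 45.8 CPM. These genes were also high in MDSC_2 to MDSC_4, and the ratio of Rab44 in MDSC_1 was 1.11 (0.726 to 1.70) to MDSC_2, 1.04 (0.692 to 1.57) to MDSC_3 and 0.930 (0.602 to 1.45) to MDSC_4. The 10 genes lowest in MDSC_1 included the lymphocyte genes Nkg7, with 2 UMIs, and Cd3g, with 1 UMI, and also Plet1, at 0 UMIs in MDSC_1 and 442 CPM in the cluster named DC, and the histone gene Hist1h3c, at 0 UMIs in MDSC_1. Of 12 cell cycle genes, 0 were higher and 12 were at least 2-fold lower in MDSC_1, with a median log2 ratio of -2.60.

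Between treatments, MDSC_1 could be compared in cell numbers and in few genes. MDSC_1 made up 4.47% of cells (exact interval 3.94 to 5.05%) in the antibody library and 1.75% (1.43 to 2.12%) in the IgG library, a ratio of 2.55 (2.02 to 3.25). Among immune clusters, its share was 12.1% in the antibody library and 8.85% in the IgG library, a ratio of 1.37 (1.08 to 1.74). Among MDSC_1 to MDSC_4, its share was 34.7% in the antibody library and 33.8% in the IgG library, a ratio of 1.03 (0.810 to 1.31). The difference thus shrank as the denominator narrowed, and within the neutrophil-like cells the interval includes 1. On that last denominator the ratio was 0.775 (0.591 to 1.02) for MDSC_2, 1.90 (1.34 to 2.75) for MDSC_3 and 0.732 (0.545 to 0.988) for MDSC_4. The bead mixing and the treatment cannot be told apart in the share of all cells.

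Expression between libraries was set side by side for 105 genes whose rows were complete in the IgG matrix, over 235 antibody and 94 IgG MDSC_1 cells with a depth recovered from those genes. Of these genes, 42 had 0 UMIs in MDSC_1 of both libraries, and 29 had at least 10 UMIs, of which 8 (27.6%) were at least 2-fold higher and 1 (3.45%) at least 2-fold lower in the antibody library. Among the 11 genes with at least 30 UMIs, 9 had a ratio above 1 and 8 had an interval that includes 1. Both UMI limits were set on the sum over both libraries, with 245889 UMIs in the antibody cells and 91995 in the IgG cells. A gene could thus pass mainly through the antibody library, as Rb1cc1 did with 28 of its 31 UMIs. The counts of genes above 1 rest in part on this choice. The median log2 ratio of the 29 genes was 0.68, so a ratio of 1 is not the centre of this small set.

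Rpl7, a ribosomal protein gene, stood at 533 CPM in antibody MDSC_1 cells and 967 CPM in IgG MDSC_1 cells, a ratio of 0.551 (0.418 to 0.729). Cox5b, a subunit of cytochrome c oxidase, stood at 541 CPM in antibody cells and 337 CPM in IgG cells, a ratio of 1.61 (1.08 to 2.46). Rb1cc1, an autophagy gene, stood at 114 CPM on 28 UMIs in antibody cells and 32.6 CPM on 3 UMIs in IgG cells, a ratio of 3.49 (1.08 to 17.9). These were the only genes of the 11 whose intervals leave out 1, each from 1 library per group. With the median ratio of the shared genes set to 1, the log2 ratio of Cox5b was -0.011, and 3 of the 29 genes were higher and 6 lower. Arid5a, an RNA-binding protein that stabilises cytokine transcripts, stood at 163 CPM in antibody cells and 76.1 CPM in IgG cells, a ratio of 2.14 (0.948 to 5.66).

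**Figure D5:**
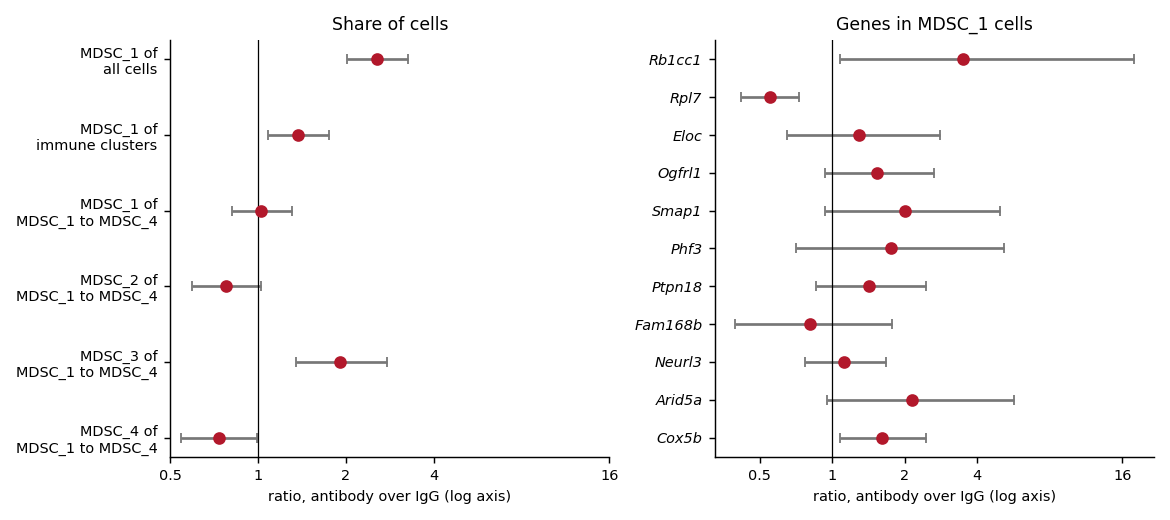
Antibody over IgG ratios on a log axis, with 95% intervals of counting error, for the share of cells in MDSC_1 to MDSC_4 (left) and for the 11 shared genes with at least 30 UMIs in MDSC_1 cells (right). The MDSC_1 share is 2.55 times as high among all cells and 1.03 times among neutrophil-like cells, and Rpl7 lies below 1 while Cox5b and Rb1cc1 lie above it.

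The IgG library gave ratios of MDSC_1 to its neighbours in cells that the profile above did not use, although the cluster names of both libraries come from the same deposited lists, so these ratios are a description as well. Neurl3, an E3 ubiquitin ligase gene, was higher in MDSC_1 than in MDSC_2 to MDSC_4 pooled in both libraries. The values were 464 CPM in MDSC_1 and 223 CPM in the others in the antibody library, a ratio of 2.08 (1.6 to 2.70), and 413 CPM and 224 CPM in the IgG library, a ratio of 1.84 (1.18 to 2.85). Cox5b gave 1.67 (1.33 to 2.10) in the antibody library and 1.26 (0.792 to 1.97) in the IgG library, and Ogfrl1 gave 1.61 (1.20 to 2.15) and 1.36 (0.749 to 2.41) in the same order. Both had ratios above 1 in both libraries, with IgG intervals that include 1. Of the 11 genes with at least 30 UMIs, 8 had ratios on the same side of 1 in both libraries and 3 on opposite sides. The 3 were Smap1, Arid5a and Rb1cc1, and each of their intervals includes 1 in both libraries. Smap1 gave 1.48 (0.984 to 2.20) in the antibody library and 0.747 (0.293 to 1.69) in the IgG library. In the same order, Arid5a gave 1.25 (0.827 to 1.85) and 0.882 (0.315 to 2.17). Rb1cc1 gave 1.09 (0.670 to 1.73) and 0.329 (0.0632 to 1.09), the latter on 3 UMIs in MDSC_1. The pooled neighbours differed in make-up, since MDSC_3 was 25.5% of MDSC_1 to MDSC_4 in the antibody library and 13.4% in the IgG library. Rpl7 gave 1.05 (0.846 to 1.29) in the antibody library and 1.46 (1.11 to 1.90) in the IgG library.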

How the data were processed

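One single-cell library per group was analysed. Cell Ranger 2.1.1 made the counts, per the submitters' processing notes. No genome build, filter on cells or clustering method is given in the sources used here. The authors deposited a cluster name for each cell and values that equal the natural log of 1 plus 10000 times a gene's UMI count over the cell's total. From these the UMI counts were recovered (Python 3.11.15, with scipy 1.17.1, numpy 2.4.6 and pandas 2.3.3), and all 15274637 antibody values above 0 came out whole within 0.001. The antibody matrix held 18685 genes, and 105 genes were complete in the IgG matrix as held here. IgG depths came from those 105 genes, so 7 of 101 MDSC_1 cells with none were left out of expression. In antibody MDSC_1 cells the same step gave the true depth for 235, no depth for 10 and a wrong one for 0.

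UMIs were summed per cluster and scaled to CPM, with exact Poisson intervals for levels, exact conditional intervals for ratios and Clopper-Pearson intervals for shares. The prior on log2 ratios was 0.5 UMIs on the smaller side and the same CPM on the other. No p-value was computed, since cells are not replicates. Thinned shares are expected values. Doublets were predicted with scrublet in scanpy 1.11.5, which marked 67 of 5482 antibody cells (1.22%) and left them in; matplotlib 3.10.9 drew the plots. Simulated data were used to test the steps.

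The members, markers, gene lists and naming rule were chosen with earlier results of these data known. The rule named the 5 markers, the 15 genes highest and the 15 lowest against each of MDSC_2 to MDSC_4 (at least 50 UMIs and 50 CPM), the 15 highest and 10 lowest against the other immune clusters, up to 4 members per list with most UMIs, and shared genes with at least 30 UMIs. Genes of ribosomal proteins, mitochondria, haemoglobin and lymphocyte receptors, and unnamed models, were not ranked. List members named beyond this, such as Casp4, Tlr2, Hilpda, Egln3, Lcn2, Camp, Ngp, Ly6g, Cxcl10 and Arg2, were chosen after their values were seen. Alternatives were deeper cells, equal weight per cell, another scaling, other count filters and priors, doublets left out, other immune pools, S100a8 and S100a9 taken out of the totals, and cells low in hepatoma markers.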

Additional observations from a re-analysis of the deposited data

How the results depend on the processing

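The counts of genes at least 2-fold apart moved with the settings. With the median log2 ratio set to 0, MDSC_1 had 696 genes higher and 417 lower against MDSC_2, 632 higher against MDSC_4 and 2601 higher against the other immune clusters. With at least 50 UMIs per gene, the counts were 181 higher and 75 lower against MDSC_2, 54 and 88 against MDSC_3, and 158 and 108 against MDSC_4. With no filter on low counts they were 3939 and 1311 against MDSC_2, 3200 and 1536 against MDSC_3, and 3852 and 1556 against MDSC_4. With a prior count of 5 they were 495 and 148 against MDSC_2, 202 and 146 against MDSC_3, 328 and 186 against MDSC_4, and 723 and 1198 against the other immune clusters. Fewer genes tested and shrinkage of low counts are built into these settings.

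Of 5070 alternative log2 ratios of single genes, 12 changed direction from a reported ratio whose interval left out 1, all of them small. Changes of direction were not counted where the reported interval included 1. Another 487 alternatives lay outside the interval of the reported ratio. Against MDSC_2 with the median set to 0, the 12 changes of direction included Btg1 at -0.067, Gapdh at -0.079 and Prdx5 at -0.053. In the same setting they included Tyrobp at -0.19, Fcer1g at -0.083 and Arpc1b at -0.0082. With S100a8 and S100a9 taken out of the totals, Tyrobp was at -0.069 against MDSC_2. Against MDSC_3, Btg2 was at -0.034 in cells with at least 1000 UMIs and Ccl4 at 0.0040 in cells under 0.2% hepatoma markers. Against the other immune clusters, Ndufa13 was at 0.11 with the median set to 0, and against macrophage and DC clusters only, Wfdc17 was at -0.14. Between libraries, Cox5b was at -0.011 with the median ratio of the shared genes set to 1. Apart from these single genes, the median of the primary granule list also changed direction. It was at 0.74 against macrophage and DC clusters only, on few genes.

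In cells with at least 1000 UMIs, the MDSC_1 share was 3.42 times as high in the antibody library as in the IgG library among all cells, 1.83 among immune clusters and 1.31 among MDSC_1 to MDSC_4. Among the shared genes, 3 were higher and 6 lower with the median ratio set to 1, and 5 were higher in cells with at least 1000 UMIs. Thinned to 1000 UMIs, which left 105 MDSC_1 cells, the shares with a UMI were 99.7% for Il1b, 61.3% for Ptgs2, 62.5% for Ccl3, 60.1% for Mmp9 and 71.8% for Il1r2. The cause of these moves was not tested. The alternatives with S100a8 and S100a9 taken out of the totals, with hepatoma-marker cells left out and with unknown-depth cells kept, and all alternatives of the respiratory chain list, were added after seeing the data. No paired analysis was possible because each group has a single library. The depth of about 950 UMIs per MDSC_1 cell limits what can be said of genes with few UMIs.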

Other observations

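In the survival and apoptosis list, 8 of 20 tested genes were at least 2-fold higher in MDSC_1 and 1 lower against MDSC_2, 2 and 0 against MDSC_3, and 5 and 4 against MDSC_4. Of all tested genes, 24.8% were higher and 6.02% lower against MDSC_2, 14.3% and 6.12% against MDSC_3, and 22.4% and 7.98% against MDSC_4, and apart from the 8 of 20 against MDSC_2 the shares of genes higher in the lists here are at or near these or below them. Mcl1, on which neutrophil survival depends, stood at 2374 CPM in MDSC_1, 2480 CPM in MDSC_2, 2360 CPM in MDSC_3 and 2657 CPM in MDSC_4. Mcl1 was thus at much the same level in all neutrophil-like clusters. Bcl2a1a, Bcl2a1b and Bcl2a1d are near-identical copies, so their separate values are uncertain.

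In the oxidative burst and antioxidant list, 4 of 16 tested genes were at least 2-fold higher and 3 lower in MDSC_1 against MDSC_4. Gpx1, a glutathione peroxidase, stood at 862 CPM in MDSC_1, 553 CPM in MDSC_2, 443 CPM in MDSC_3 and 233 CPM in MDSC_4. Dusp2, a phosphatase that switches off MAP kinases, stood at 595 CPM in MDSC_1, 176 CPM in MDSC_2, 562 CPM in MDSC_3 and 145 CPM in MDSC_4, so MDSC_1 and MDSC_3 were alike and the other clusters lower. In the immediate early list, 2 of 22 tested genes were higher and 0 lower against MDSC_2, 0 and 0 against MDSC_3, and 2 and 0 against MDSC_4. Gpx1 and Dusp2 were chosen after their values were seen.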
